A study of Canis lupus familiaris with 12 samples.

Results

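HU-HSA-3 was compared with HU-HSA-2 in the glucose-starved state: 6 of the 12 libraries of the series, all from cells kept for 48 h at 0 mM glucose, 3 libraries per line. All genes that passed a filter on low counts entered the comparison, 11960 of the 30951 listed. The series measured mRNA in both lines at 0 mM and 25 mM glucose. The other 6 libraries, at 25 mM, are used here for scaling and to compare the line difference with that in glucose. HU-HSA-2 and HU-HSA-3 are canine hemangiosarcoma lines, both from spleen tumors, HU-HSA-2 from a castrated male toy poodle and HU-HSA-3 from a spayed female flat coated retriever. Both were grown in DMEM with fetal bovine serum and penicillin–streptomycin, and no engineered allele is given for these samples. Each line stands for 1 dog, so line, breed, sex and tumor cannot be told apart. The counts of each line were also deposited in a table of its own, and any difference in when the lines were grown, prepared or sequenced cannot be told apart from the line. The libraries hold RNA from whole cultures, in which less RNA per cell and fewer cells of a kind cannot be told apart.

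Hemangiosarcoma is a cancer whose cells line blood-filled spaces and carry endothelial markers such as CD31. Cells that run short of glucose or amino acids, or whose protein folding fails, activate the integrated stress response, in which general translation is lowered while the transcription factor ATF4 is made. ATF4 then raises genes for amino acid synthesis and uptake, one-carbon metabolism and redox balance, and with prolonged stress the transcription factor DDIT3 (CHOP).

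Counts assigned to genes totalled 10406166 to 13405159 per library at 0 mM. Levels are given as CPM, the count of a gene relative to the scaled total of its library. Between replicates at 0 mM, log2 CPM correlated with r = 0.987 to 0.993 across 12233 genes, and between lines with r = 0.859 to 0.871, a description across genes that are not independent. On a principal component analysis of the 12 libraries, component 1 held 87.7% of the variance and separated the lines. HU-HSA-3 replicate 1 at 0 mM stood apart from its replicates on components 2 and 3, with scores of 28.1 and -19.7 against 10.5 and 12.7, and 2.06 and 4.11, for the other two. The biological coefficient of variation of the fit at 0 mM was 10.4% with this library and 7.35% without it. At 25 mM it was 4.97%.

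Most tested genes differed between the starved lines. At an adjusted p under 0.05 (quasi-likelihood test of edgeR, Benjamini-Hochberg adjustment), 8173 of 11960 genes differed (68.3%), 3969 higher (33.2%) and 4204 lower (35.2%) in HU-HSA-3. The typical difference was modest, with a median absolute log2 fold change of 0.56, a 1.47-fold difference. The median signed value over all tested genes was -0.01. With a test against a 2-fold difference (glmTreat), 2228 genes differed beyond 2-fold (18.6%), of which 693 were higher (5.79%) and 1535 lower (12.8%) in HU-HSA-3. With at least 10 counts asked of each library, 1277 genes differed beyond 2-fold, 453 higher and 824 lower. The split of calls of any size depended on the scaling, with 3517 higher and 4601 lower under upper-quartile scaling and 4679 higher and 3942 lower with the trend on gene length removed. Beyond 2-fold, more genes were lower than higher in HU-HSA-3 under each of these settings. Without HU-HSA-3 replicate 1, 8747 genes differed, 7903 of them among the 8173, and 2324 differed beyond 2-fold, 2103 of them among the 2228.

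**Figure D1:**
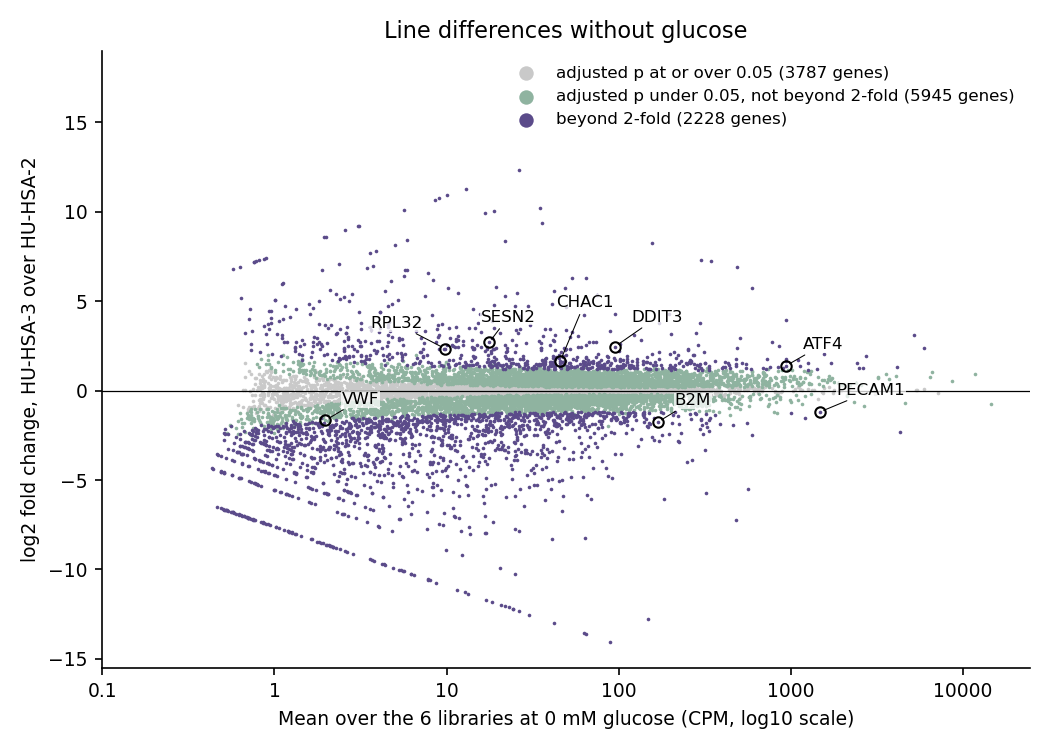
Each point is 1 of 11960 genes at 0 mM glucose. The x axis is the mean CPM of the 6 libraries on a log10 scale, the y axis the log2 fold change of HU-HSA-3 over HU-HSA-2, and color marks the 2228 genes beyond 2-fold and the other genes past the threshold. The 1535 genes below lie mostly at low CPM, and the slanted rows of points at the left are genes with few or no counts in 1 line, whose fitted fold change depends on the prior count.

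The direction of the large differences varied with the level of the gene. Among 392 genes with a mean under 1 CPM, 184 were lower and 26 higher in HU-HSA-3 beyond 2-fold. Among 2910 genes with a mean of 1 to 10 CPM, 728 were lower and 199 higher. Among 6464 genes at 10 to 100 CPM, 534 were lower and 321 higher. Among 2194 genes at 100 CPM or more the order turned, with 147 higher and 89 lower. The share beyond 2-fold fell from 53.6% to 31.9%, 13.2% and 10.8% over these levels, while the share that differed at all was 74.2%, 64.3%, 67.9% and 74.1%. The filter acts here, since a gene of few counts passed it only where at least 1 line had enough counts.

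Expressed as reads, the genes higher in HU-HSA-3 carried more of the library than the larger number of genes higher in HU-HSA-2. The 693 genes took 12.1%, 12.5% and 12.4% of the counts in the HU-HSA-3 libraries at 0 mM and 4.17%, 4.08% and 4.18% in the HU-HSA-2 libraries. The 1535 genes took 1.59%, 1.70% and 1.70% in HU-HSA-3 and 7.85%, 8.37% and 7.73% in HU-HSA-2. These shares describe the rule that chose the genes. In the libraries at 25 mM, which did not choose them, the 693 genes took 11.2% to 11.4% in HU-HSA-3 libraries and 4.12% to 4.19% in HU-HSA-2 libraries, and the 1535 genes 1.71% to 1.75% and 7.74% to 8.11%. The lines did not overlap in either share at either glucose level.

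**Figure D2:**
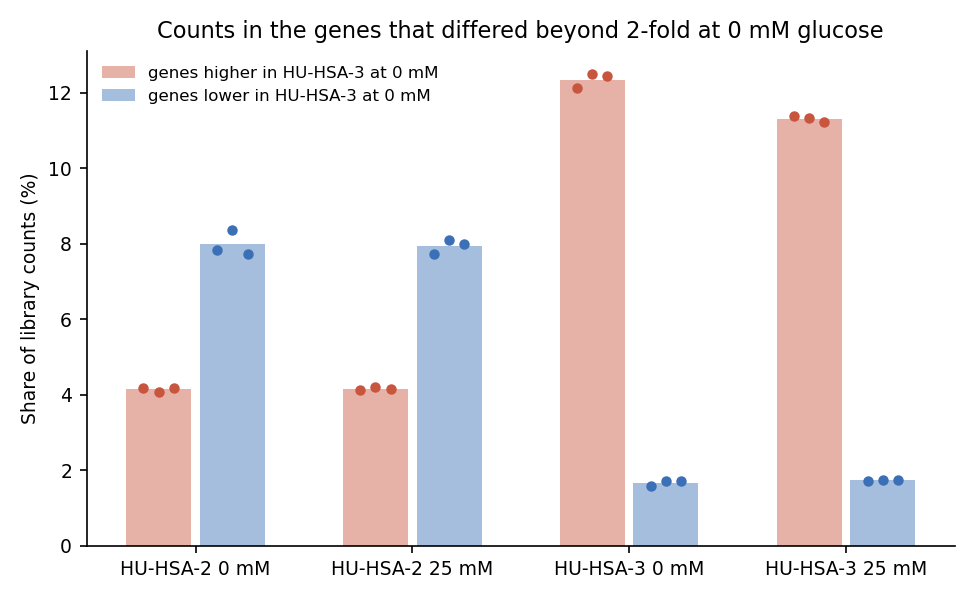
Bars are means and points single libraries (3 per group) of the share of library counts, in percent, taken by the 693 genes higher (red) and the 1535 genes lower (blue) in HU-HSA-3 beyond 2-fold at 0 mM glucose. The red bars stand near 12% and 11% in HU-HSA-3 and near 4% in HU-HSA-2, and the blue bars near 8% in HU-HSA-2 and under 2% in HU-HSA-3, at both glucose levels.

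Some genes were present in 1 starved line and near absent from the other. With a mean of at least 1 CPM in 1 line and at most 3 counts in each library of the other, 347 genes were found in HU-HSA-2 but 78 in HU-HSA-3, and 112 and 24 of these had no count at all in the other line. At a mean of at least 10 CPM, 51 and 15 genes remained, with highest means of 295.7 CPM for HU-HSA-2 and 72.0 CPM for HU-HSA-3. At 25 mM, 285 of the 347 and 62 of the 78 again had at most 3 counts in each library of the other line.

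The tables name genes by Ensembl identifier, and the study paired 17 of those used here with a symbol, so the largest differences are given by identifier. ENSCAFG00000029394 had 484, 548 and 638 counts in HU-HSA-3 and 0 in each HU-HSA-2 library, which set against a floor of 3 counts per library makes it at least 224-fold higher. ENSCAFG00000017082 had 235, 280 and 305 counts in HU-HSA-3 and none in HU-HSA-2, at least 110-fold higher. In the other direction, ENSCAFG00000012219 had 2279, 2594 and 2397 counts in HU-HSA-2 and none in HU-HSA-3, at least 548-fold lower in HU-HSA-3. ENSCAFG00000012067 had 1633, 1904 and 1800 counts in HU-HSA-2 and none in HU-HSA-3, at least 402-fold lower. All 4 were also at 0 in the same line at 25 mM. The floor covers counting error only.

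At 48 h of starvation, the 7 stress-response genes that could be matched to an identifier stood at higher levels in HU-HSA-3. Other stress-response genes of the study were not analysed here. All 7 passed the test, against 33.2% of tested genes that were higher, and 5 of 7 passed it beyond 2-fold, against 5.79%. In all 7 the lowest HU-HSA-3 library was above the highest HU-HSA-2 library, as in 35.8% of tested genes. Their median log2 fold change was 1.39, beside -0.01 over all tested genes. The study chose these genes in work on these cells under starvation, so the list is not independent evidence of its direction.

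The mRNAs of the pathway's transcription factors differed strongly, and their protein levels were not measured in these libraries. ATF4, the central factor of the response, stood at 510, 531 and 506 CPM in HU-HSA-2 and at 1469, 1339 and 1279 CPM in HU-HSA-3. It was 2.62-fold higher in HU-HSA-3 (log2 fold change 1.39, SE 0.08, edgeR adjusted p = 2.28e-07). DDIT3, a factor tied to cell death under prolonged stress, stood at 28.7, 30.0 and 28.6 CPM in HU-HSA-2 and at 169, 169 and 145 CPM in HU-HSA-3. Its 5.48-fold difference (log2 2.45, SE 0.09, edgeR adjusted p = 1.28e-08) was larger than that of ATF4, and the replicates of each line lay close together.

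Among stress effectors, SESN2, a sestrin that restrains mTORC1 when amino acids run short, had the largest fold of the list. It was at 4.72, 5.94 and 3.42 CPM in HU-HSA-2 and at 24.4, 35.4 and 32.3 CPM in HU-HSA-3 (6.47-fold, log2 2.69, SE 0.20, edgeR adjusted p = 1.46e-06). CHAC1, which degrades glutathione, was at 21.5, 24.9 and 19.3 CPM in HU-HSA-2 and at 71.1, 67.5 and 70.6 CPM in HU-HSA-3 (3.15-fold, log2 1.66, SE 0.11, edgeR adjusted p = 5.30e-07). Both differed beyond 2-fold, SESN2 from a low level in HU-HSA-2.

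The metabolic targets had smaller fold changes, although ASNS lay close to ATF4 and the order of the genes was not tested. ASNS, asparagine synthetase, was at 116, 111 and 124 CPM in HU-HSA-2 and at 295, 276 and 262 CPM in HU-HSA-3 (2.36-fold, log2 1.24, SE 0.08, edgeR adjusted p = 5.43e-07), and passed the test beyond 2-fold. SLC7A11, the cystine importer, was at 19.4, 20.1 and 17.3 CPM in HU-HSA-2 and at 28.0, 55.5 and 46.0 CPM in HU-HSA-3 (2.26-fold, log2 1.18, SE 0.21, edgeR adjusted p = 5.34e-04). Its HU-HSA-3 libraries were spread, replicate 1 being the lowest, and its difference did not pass the test beyond 2-fold (glmTreat adjusted p = 0.319). MTHFD2, a mitochondrial enzyme of one-carbon metabolism, was at 100, 102 and 107 CPM in HU-HSA-2 and at 150, 145 and 144 CPM in HU-HSA-3. It had the smallest difference of the 7, 1.41-fold (log2 0.50, SE 0.07, edgeR adjusted p = 1.67e-04).

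Scaled for gene length, the order of the 7 genes within a line also differed. In TPM, a level relative to gene length and library, HU-HSA-2 had ATF4 at 512 ± 27.8, MTHFD2 at 93.4 ± 1.11, ASNS at 80.8 ± 2.13 and DDIT3 at 55.3 ± 2.89 (mean ± SD, n = 3). In HU-HSA-3, ATF4 was at 1146 ± 5.92, DDIT3 at 267 ± 17.6, ASNS at 162 ± 1.39 and MTHFD2 at 113 ± 4.91. Below them in both lines came CHAC1 (31.9 ± 4.97 against 87.1 ± 5.93 in HU-HSA-3), SLC7A11 (16.7 ± 1.78 against 32.4 ± 11.7) and SESN2 (3.30 ± 0.976 against 18.3 ± 4.23). DDIT3 was thus the second most abundant of these transcripts in starved HU-HSA-3 and the fourth in starved HU-HSA-2. TPM was scaled within each deposited table, and was not tested between lines.

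**Figure D3:**
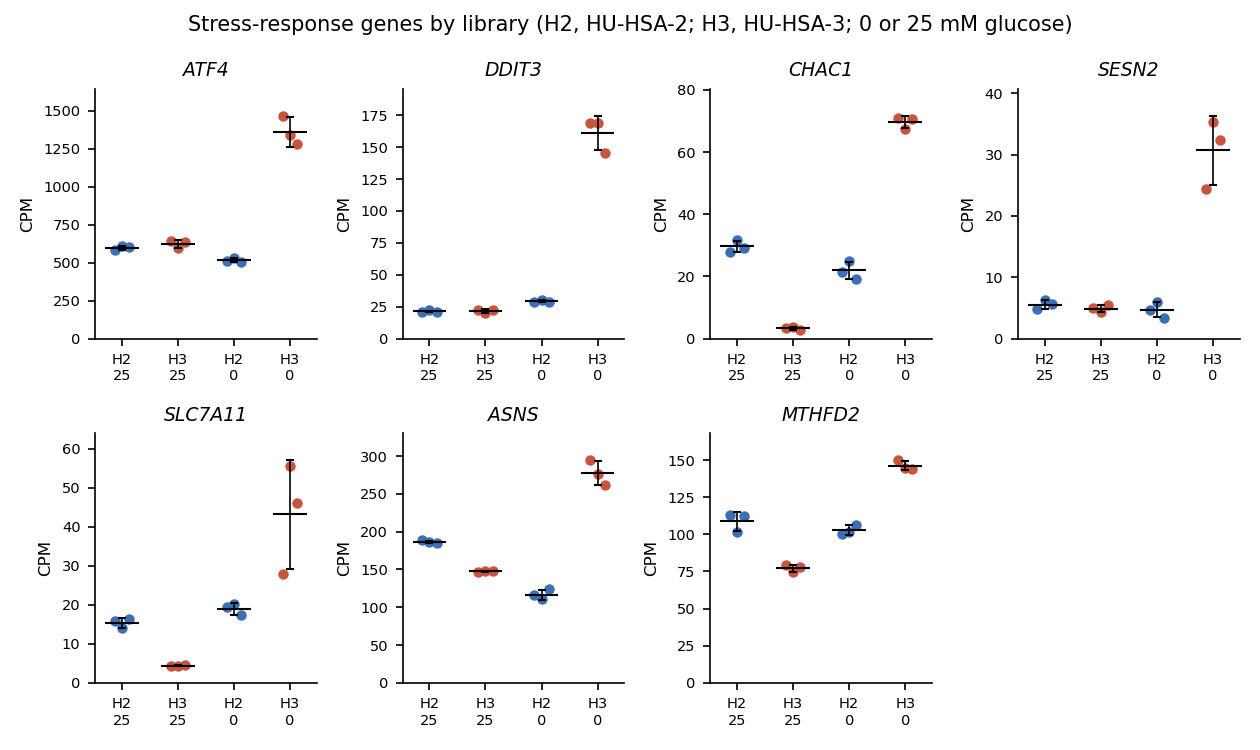
Expression of the 7 stress-response genes in CPM (linear axes from 0), with points for the 3 libraries of each group, bars for the mean and whiskers for the SD. HU-HSA-3 at 0 mM is the highest group in every panel, while at 25 mM HU-HSA-3 lies near or below HU-HSA-2.

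With glucose, none of the 7 genes passed the test as higher in HU-HSA-3. At 25 mM, 0 of the 7 genes were higher in HU-HSA-3 and 4 were lower, where 79.8% of 11793 tested genes differed, 39% higher and 40.8% lower. The median log2 fold change of the list was -0.35 at 25 mM, beside -0.02 over all genes. ATF4 (log2 0.05, SE 0.04, edgeR adjusted p = 0.304), SESN2 (log2 -0.20, SE 0.19, edgeR adjusted p = 0.334) and DDIT3 (log2 0.00, SE 0.09, edgeR adjusted p = 0.985) did not pass the test. With the trend on gene length removed, ATF4 passed as higher (log2 0.13, edgeR adjusted p = 0.00629). CHAC1 was at 28.0, 31.6 and 29.2 CPM in HU-HSA-2 and at 3.54, 3.55 and 2.71 CPM in HU-HSA-3, 9.12-fold lower (log2 -3.19, SE 0.14, edgeR adjusted p = 3.07e-17). SLC7A11 was at 15.7, 13.9 and 16.4 CPM against 4.35, 4.24 and 4.65 CPM, 3.49-fold lower (log2 -1.80, SE 0.15, edgeR adjusted p = 2.52e-11). ASNS (log2 -0.35) and MTHFD2 (log2 -0.50) were also lower in HU-HSA-3. The line difference therefore pointed in opposite directions at the 2 glucose levels for CHAC1, SLC7A11, ASNS and MTHFD2.

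The change of the line difference with glucose was tested in a fit of all 12 libraries, as the log2 difference at 0 mM minus that at 25 mM. All 7 stress-response genes passed with a positive change, against 2.43% of 12233 tested genes. CHAC1 ranked 1 of the 297 genes with a positive change, SLC7A11 8, SESN2 9, DDIT3 12, ASNS 38, ATF4 59 and MTHFD2 89. In all, 579 genes passed (4.73%), 297 with a positive and 282 with a negative change (2.31%), and without HU-HSA-3 replicate 1 at 0 mM 852 passed, 556 of them among the 579. Of the 579 genes, the line difference was smaller at 0 mM in 249, larger in 167 and of the other sign in 163. The absolute change exceeded 1 on the log2 scale in 140 genes and 2 in 32.

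The starved lines otherwise differed largely as they did with glucose. Of the 11684 genes tested at both levels, in comparisons that shared no library, 7443 differed at both, which is 93.2% of the 7989 that differed at 0 mM and 79.9% of the 9321 at 25 mM. The direction was the same for 7371 of them. Across these genes the log2 fold changes correlated with Pearson's r = 0.959 and Spearman's rho = 0.932, a description over genes that are not independent. At 25 mM, 2473 genes differed beyond 2-fold (21%), 866 higher (7.34%) and 1607 lower (13.6%) in HU-HSA-3. Beyond 2-fold at both levels were 1840 genes, 1838 in the same direction. In the fit of all 12 libraries, 7511 genes differed between lines at both levels with no change of the difference past the threshold, which does not show that the differences were equal.

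**Figure D4:**
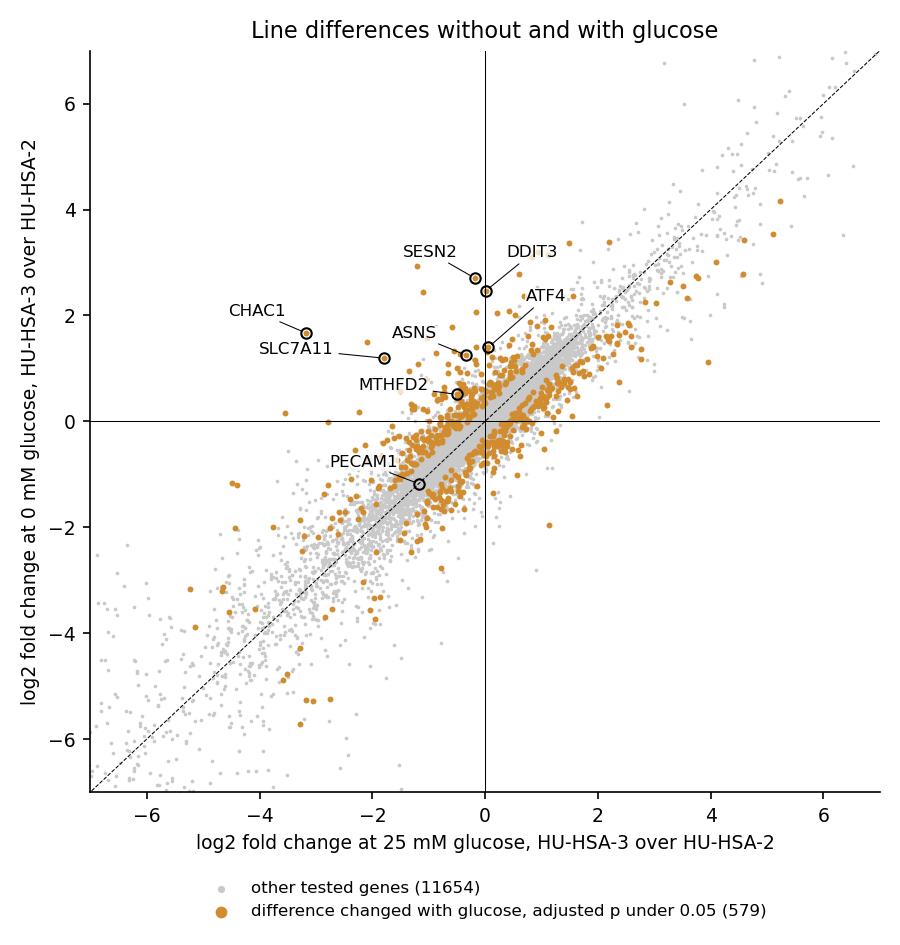
Each point is 1 of 12233 genes in the fit of all 12 libraries, with the log2 fold change of HU-HSA-3 over HU-HSA-2 at 25 mM on the x axis and at 0 mM on the y axis. The dashed line marks equal differences, the 579 genes whose difference changed with glucose are orange, and 199 genes lie beyond the axis limit of 7 in either direction. Most genes follow the dashed line, whereas the 7 labelled stress-response genes lie above it and PECAM1 lies on it.

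A small group of 72 genes differed between the lines at both levels in opposite directions (0.616% of those tested at both), 47 of them higher in HU-HSA-3 when starved and lower with glucose. Their differences were mostly small, with median absolute log2 fold changes of 0.52 at 0 mM and 0.42 at 25 mM. Only CHAC1 and ENSCAFG00000008980 did so beyond 2-fold at both levels. The latter was named after its values were seen. It stood at 117, 116 and 121 CPM in starved HU-HSA-2 and at 909, 917 and 874 CPM in starved HU-HSA-3, a log2 fold change of 2.92 (SE 0.07, edgeR adjusted p = 1.07e-09). At 25 mM it stood at 93.3, 97.6 and 101 CPM in HU-HSA-2 and at 40.1, 45.3 and 40.5 CPM in HU-HSA-3, a log2 fold change of -1.23 (SE 0.06, edgeR adjusted p = 3.26e-15).

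The enzymes of proline synthesis, a pathway that ATF4 also acts on, differed in opposite directions between the starved lines. ALDH18A1, which catalyzes the entry step from glutamate, was at 197, 197 and 199 CPM in HU-HSA-2 and at 333, 335 and 333 CPM in HU-HSA-3 (1.67-fold higher, log2 0.74, SE 0.07, edgeR adjusted p = 5.32e-06). PYCR1, a mitochondrial enzyme of the last step, was at 161, 200 and 178 CPM in HU-HSA-2 and at 126, 124 and 124 CPM in HU-HSA-3 (1.46-fold lower, log2 -0.54, SE 0.09, edgeR adjusted p = 3.78e-04). The lines did not overlap in either gene, as in 72.8% of tested genes, and neither gene differed beyond 2-fold. At 25 mM PYCR1 was further below HU-HSA-2 (log2 -1.24), and the change of its difference with glucose was 0.69 (SE 0.11, edgeR adjusted p = 6.27e-04). For ALDH18A1 the difference was 0.94 at 25 mM and its change of -0.20 (SE 0.07) did not pass the test (edgeR adjusted p = 0.146).

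The endothelial label was checked with the markers that had an identifier, 3 of 17 in the list. PECAM1, which encodes CD31, was abundant in both starved lines and lower in HU-HSA-3. It was at 1968, 2098 and 2078 CPM in HU-HSA-2 and at 840, 923 and 946 CPM in HU-HSA-3 (2.29-fold lower, log2 -1.20, SE 0.08, edgeR adjusted p = 5.30e-07), a difference beyond 2-fold (glmTreat adjusted p = 0.0212). KDR, a receptor of vascular endothelial growth factor, was at 238, 239 and 225 CPM against 139, 167 and 175 CPM (1.47-fold lower, log2 -0.56, SE 0.09, edgeR adjusted p = 3.84e-04). VWF, the von Willebrand factor, was low in both, with 43, 42 and 38 counts in HU-HSA-2 against 11, 3 and 16 in HU-HSA-3 (log2 -1.67, SE 0.39, edgeR adjusted p = 0.00321). All 3 markers were lower in HU-HSA-3, against 35.2% of tested genes, and in all 3 the lines did not overlap, as in 37% of tested genes in this direction.

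The line differences of the endothelial markers at 25 mM lay close to those at 0 mM. At 25 mM the log2 fold changes were -1.18 for PECAM1, -0.57 for KDR and -1.65 for VWF. The changes with glucose were -0.01 (SE 0.08), 0.01 (SE 0.11) and -0.01 (SE 0.67), none past the threshold. The standard error of VWF is wide, so a change of its difference could not be seen at its depth. Markers of fibroblasts, smooth muscle and pericytes, leukocytes and epithelium had no matched identifier and were not analysed here.

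The 5 reference genes of RT-qPCR described here were not alike between the starved lines, with 2 higher, 2 lower and 1 not past the threshold, where 68.3% of all tested genes differed. B2M, the light chain of MHC class I, was at 248, 278 and 254 CPM in HU-HSA-2 and at 97.2, 65.6 and 70.2 CPM in HU-HSA-3 (3.38-fold lower, log2 -1.76, SE 0.14, edgeR adjusted p = 2.00e-06). TBP, the TATA-binding protein, was at 40.4, 40.3 and 40.9 CPM against 63.0, 61.5 and 60.2 CPM (higher in HU-HSA-3, log2 0.59, SE 0.08, edgeR adjusted p = 9.26e-05). YWHAZ, a 14-3-3 protein, was at 316, 321 and 341 CPM against 291, 256 and 255 CPM (1.23-fold lower, log2 -0.30, SE 0.08, edgeR adjusted p = 0.00725). The lines did not overlap in these 3 genes, as in 72.8% of tested genes.

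ACTB, cytoplasmic actin, did not pass the test and overlapped between the lines. It was at 2128, 2228 and 2169 CPM in HU-HSA-2 and at 2318, 2079 and 2226 CPM in HU-HSA-3 (log2 0.01, SE 0.08, edgeR adjusted p = 0.930). RPL32, a ribosomal protein, was at 47, 41 and 44 counts in HU-HSA-2 and at 106, 207 and 213 counts in HU-HSA-3, 5.06-fold higher (log2 2.34, SE 0.22, edgeR adjusted p = 7.94e-06). Its identifier held only 0.847 ± 0.130 and 3.80 ± 1.28 TPM, which is low for a ribosomal protein gene. Such genes have near-identical copies, and whether reads were lost to or gained from copies was not tested, although its counts were whole in all 12 libraries. ACTB and YWHAZ had counts that were not whole numbers in all 12 libraries, as RSEM gives where reads are divided between genes, and their values are uncertain.

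**Figure D5:**
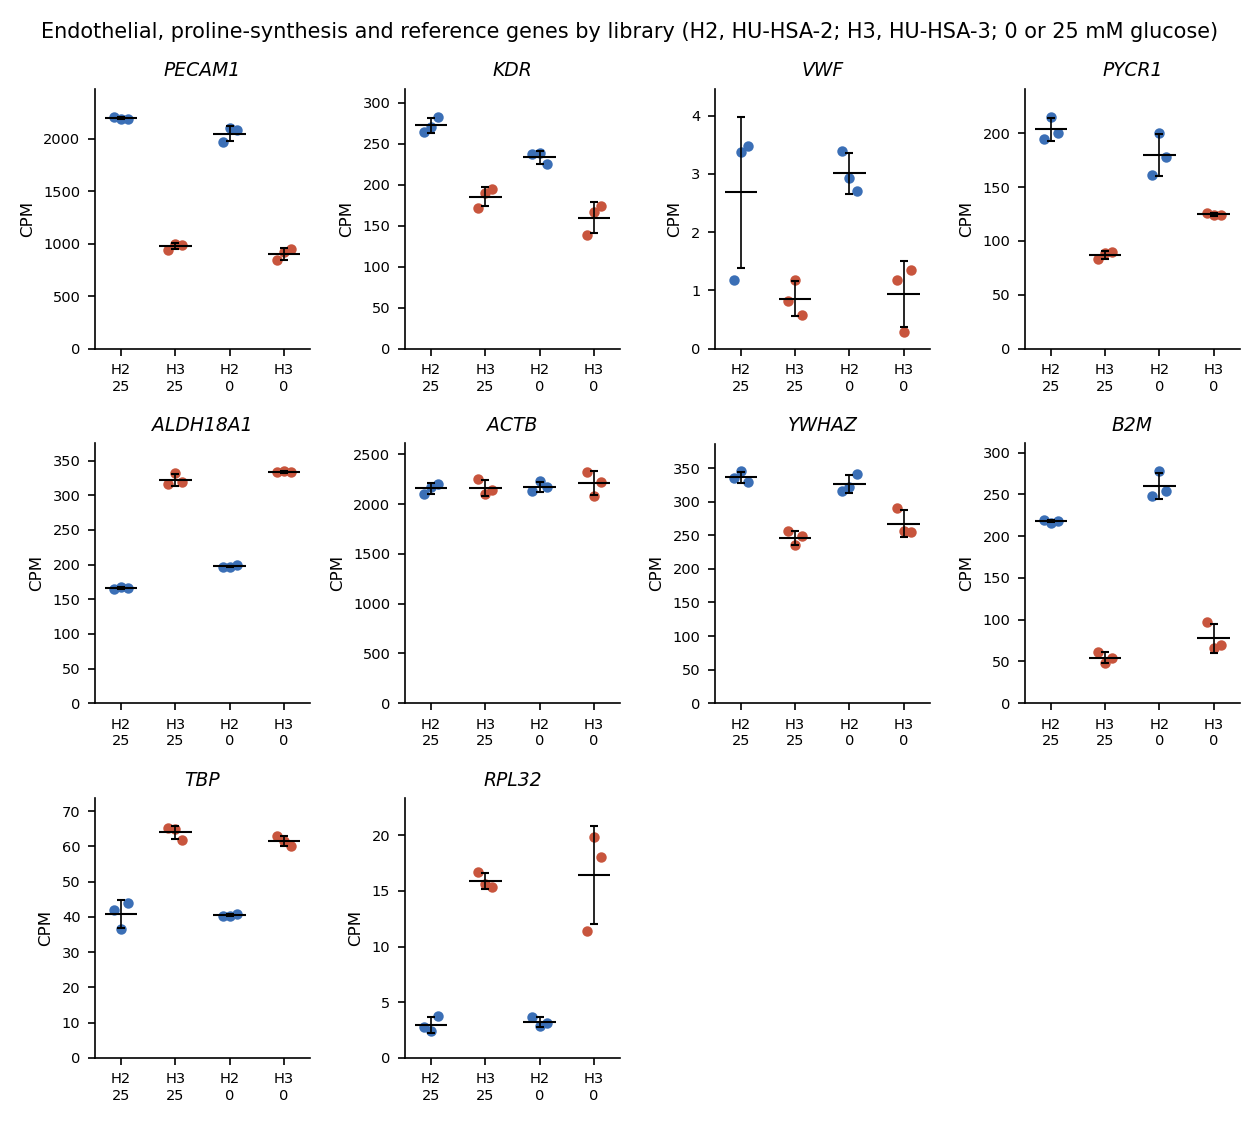
Expression in CPM (linear axes from 0) of 3 endothelial markers, 2 enzymes of proline synthesis and 5 reference genes, with points for the 3 libraries of each group, bars for the mean and whiskers for the SD. PECAM1, KDR and B2M are lower in HU-HSA-3 at both glucose levels, ALDH18A1, TBP and RPL32 are higher, and ACTB overlaps between all groups.

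Reads divided between genes and gene length were also examined. Counts that were not whole numbers occurred at 0 mM in 5.84% of tested genes and in 6.51% of the 2228 genes beyond 2-fold. Effective length, which can shift when a line uses other transcripts, differed by more than 2 times between the lines in 4 of 10572 genes. It could be compared only for genes with at least 10 counts in each library at 0 mM. These included 1322 of the 2228 genes beyond 2-fold, and length was not examined for the others. VWF was not among the 10572 genes. Its ratio of effective lengths, HU-HSA-3 over HU-HSA-2, was 0.673 over libraries of both glucose levels with at least 10 counts. The HU-HSA-3 libraries used held only 11, 16 and 12 counts, so this ratio is uncertain.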

How the data were processed

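Per the labels and the study's methods, polyA mRNA libraries (directional kit) were mapped to CanFam3.1 with STAR and quantified with RSEM; versions of these tools, the annotation release and the strand setting were not given in the sources used here. The authors deposited expected counts, not normalized, and TPM, which are relative to gene length and to the library, in separate tables for each line. All columns were used (0 left out), and 97.7% of the expected counts were whole.

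Tables were joined by identifier, and expected counts were rounded and tested in R 4.3.3 with edgeR 4.0.16 (filterByExpr, TMM, glmQLFit, glmQLFTest, and glmTreat at a log2 fold change of 1), with Benjamini-Hochberg adjustment at 0.05. Line differences used the 6 libraries of a glucose level, and their change with glucose all 12. A standard error is the unshrunken log2 fold change over the square root of F. Levels are CPM with TMM over 12 libraries. In simulated counts of the comparison at 0 mM (11762 genes), 85 of 98 genes changed 2-fold and 99 of 99 changed 4-fold were recovered. Of 11565 unchanged genes, 14 were past the threshold. Few genes were changed there, with both directions drawn alike, whereas 68.3% of tested genes differed in the data. Scaling and error rates under such wide differences were not simulated.

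Libraries were grouped by the labels (3 per group). No pair held identical values. Per the study's methods, cells of each line and glucose level were cultured in triplicate; whether the cultures were grown on separate occasions is not given in the sources used here, so p-values measure the spread between these cultures. Same-numbered libraries of the lines at 0 mM did not deviate together (r = -0.03, 0.04 and -0.07), so replicate number was not a block. The members and lists were chosen with earlier results of these data known. Named genes are those the study's RT-qPCR primer list pairs with an identifier (17 used). Added by identifier were the 2 higher and 2 lower genes at 0 mM with the largest fitted fold, at least 1 CPM and no overlap. The reference gene table (UU_Cfam_GSD_1.0) matched 0 identifiers, so the other fixed lists, on ATF4 targets, the unfolded protein response, NRF2, glycolysis, aspartate and glutamine metabolism, oxidative phosphorylation, fatty acid oxidation, inflammation, angiogenesis, cell cycle, matrix, lactylation enzymes and other cell types, had 0 matched members and no result, and coordinates are not given. Some results are not reported here. Alternatives were DESeq2 1.42.0 (size factors, Wald test), upper-quartile scaling, no filter, a minimum of 10 counts per library, a replicate block, removal of each library's trend on effective length (span 0.3), 1 fit of all 12 libraries, and the omission of each library in turn.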

Additional observations from a re-analysis of the deposited data

Results flagged for a closer look

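The line difference (HU-HSA-3 over HU-HSA-2, log2) at 0 mM differed from that at 25 mM in 579 of 12233 genes by edgeR's quasi-likelihood test of the difference itself. Among named genes the change was 4.85 for CHAC1, 2.99 for SLC7A11, 2.90 for SESN2, 2.45 for DDIT3, 1.59 for ASNS, 1.34 for ATF4, 1.002 for MTHFD2 and 0.69 for PYCR1. For the first 7, each HU-HSA-3 library at 0 mM was above each of the 3 HU-HSA-2 libraries, as in 35.8% of tested genes. For PYCR1, HU-HSA-3 was lower at both levels and less so at 0 mM. All libraries were from 48 h, so a difference in the timing of the response was not tested.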

How the results depend on the processing

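Of the counts of genes, 116 of 117 values under an alternative lay within 1.5 times the value given. The exception was the count beyond 2-fold, which was 1277 rather than 2228 where each library had to hold at least 10 counts (453 higher, 824 lower), a filter that drops genes near 0 in 1 line. With a library left out in turn, 7488 to 8747 genes differed at 0 mM, 2085 to 2324 beyond 2-fold, 386 to 852 in their change with glucose and 9154 to 9373 at 25 mM. The replicate block gave 7860 genes at 0 mM, 2156 beyond 2-fold, 524 for the change and 9312 at 25 mM, and changed the call of no named gene. Upper-quartile scaling split the calls at 0 mM into 3517 higher and 4601 lower, and removing the length trend into 4679 and 3942, against 3969 and 4204. The 7 stress-response genes remained past the threshold and higher at 0 mM under every setting and with each library left out. The 72 genes of opposite direction were 64 to 88 under the other settings and 61 to 93 with a library left out, alternatives chosen after seeing the data.

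The log2 fold changes at 0 mM of named genes kept direction and call in 285 of 289 values; the others were of ACTB, which was -0.070 with upper-quartile scaling, -0.044 under the filter of 10 counts per library, and -0.019 to 0.065 with a library left out. The changes with glucose kept both in 300 of 322 values. The other 22 changed sign and did not pass the test. They were PECAM1 0.015 and VWF 0.12 with the length trend removed, KDR -0.0069 under the filter of 10 counts per library, and values with a library left out, whose full ranges, including those that kept their sign, were RPL32 -0.28 to 0.12, TBP -0.11 to 0.023, ACTB -0.019 to 0.060, PECAM1 -0.057 to 0.034, VWF -0.42 to 0.41 and KDR -0.067 to 0.10. At 25 mM, 276 of 289 values kept both. Of the other 13, ATF4 was -0.03 with upper-quartile scaling and 0.13 with the length trend removed (edgeR adjusted p = 0.00629), DDIT3 was -0.08 with upper-quartile scaling, -0.04 under the filter of 10 counts per library and reversed in 3 fits with a library left out (lowest -0.020), and ACTB reversed in 6 fits, up to 0.071 with the length trend removed. VWF and the 4 genes at 0 in 1 line gave no value under that filter. The cause of these shifts was not tested. Depth limits what can be said of VWF, RPL32 and SESN2, and of genes near the floor of 3 counts.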
